A study of Populus tremula x Populus alba with 6 samples.

Results

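The loci described here are internal parts of Gypsy retrotransposons in the poplar genome, found in lists of loci with extrachromosomal DNA signal. A locus was included where the name given to it before any other starts with Gypsy, POPGY or GYPOT and does not end in LTR. The families Gypsy13-PTR_I-int and Gypsy21-PTR_I-int were left out. The rule found 32 loci of 436 listed in all, carrying 58 of 665 entries over 6 libraries. It uses names alone and no value of depth, split reads, length or listing. The names mark a part of an element, so length need not be independent of the rule.

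Gypsy elements are long terminal repeat (LTR) retrotransposons, which move by copying their RNA into DNA. An LTR lies at each end, and the internal part between them encodes the structural Gag protein and the Pol polyprotein, with protease, reverse transcriptase, ribonuclease H and integrase. DNA copies that are not inserted can close into circles outside the chromosomes, and mobilome-seq enriches such circles by amplification before sequencing. DDM1 is a chromatin remodeller that, in Arabidopsis, keeps DNA methylated and transposable elements silent.

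The DNA came from shoot apical meristems of the poplar clone 717-1B4, a hybrid of Populus tremula and Populus alba. The groups were RNAi ddm1 line 15, RNAi ddm1 line 23 and wild type (WT), each after drought and rewatering (called drought below) and under control watering. Each of these 6 groups had 1 library, so no value has a replicate within its group. RNAi is represented by 2 lines, and the sources used here do not give the promoter that drives it or the number of plants in a library. No tissue marker and no ddm1 transcript are measured by this DNA assay. The lists held between 44 and 169 loci and summed depth values between 22388 and 92011, which are sums over selected loci and not sequencing depths.

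Each list gives a DOC and an SR value per locus, taken to mean depth of coverage and split reads, which map in pieces because they span a junction. Both are unscaled whole numbers, and it is not stated if they count reads or give a depth. The lowest depth value in any list was 3, the lowest split-read value 3 and the lowest fraction of a locus covered by depth 0.801. A locus below the authors' threshold has no value, so a locus missing from a list is called unlisted. Coordinates are those of the deposited tables, counted from 1, and no sequence or gene annotation of their build was used.

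The 32 loci carried 12 family names and lay on 14 of the 19 chromosomes with listed loci. The families with most loci were Gypsy-28_PTr-I-int with 6, and Gypsy-27_PTr-I-int, Gypsy23-PTR_I-int and POPGY1_I-int with 4 each. Gypsy7-PTR_I-int and Gypsy8-PTR_I-int had 3 each. Lengths ran from 113 to 8194 bp with a median of 371 bp, against a median of 251.5 bp over all 436 loci. Of the 32, 9 were longer than 1000 bp.

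Several names were given to 18 of the 32 loci, and at 15 of these every name met the same rule. Gypsy-27 and Gypsy-28 names stood together at 9 loci. An LTR name was added at 2 loci and an Ogre name, of a lineage of very large Gypsy elements, at 1. Families that share a locus may share reads, so their values cannot be fully separated.

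**Figure D1:**
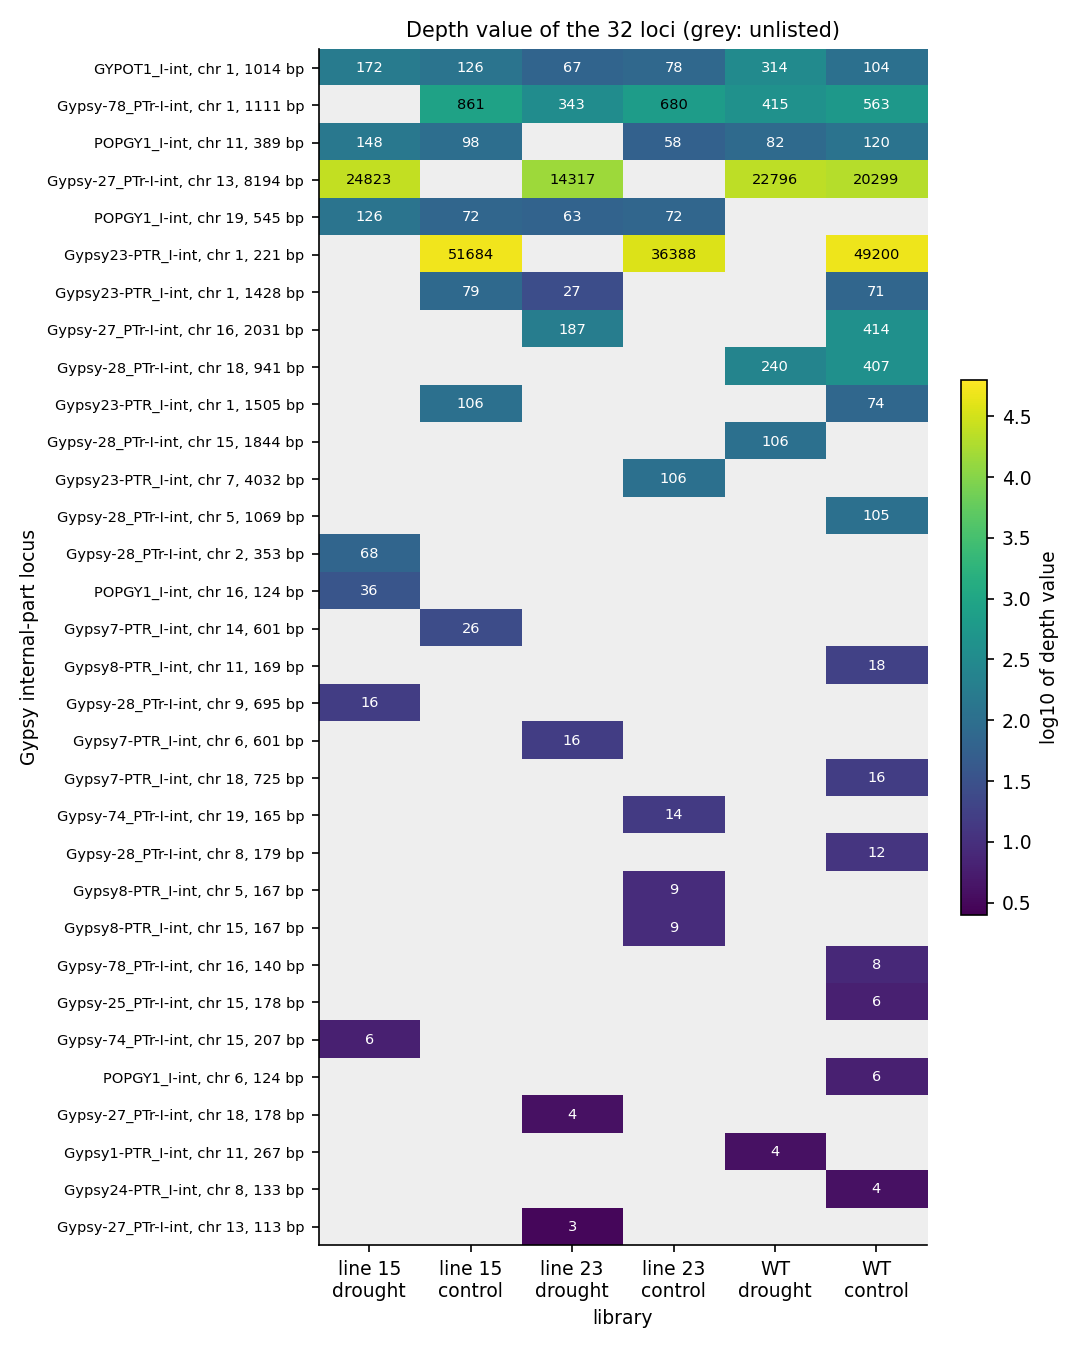
Depth value of each of the 32 Gypsy internal-part loci (rows, with chromosome and length in bp) in each of the 6 libraries (columns); colour is log10 of the depth value, numbers are the values as deposited and grey is unlisted. The 2 leading loci stand at 14317 or above where listed, and no other locus exceeds 861.

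Depth was concentrated in 2 of the 32 loci. Gypsy23-PTR_I-int on chromosome 1 (44984628 to 44984848, 221 bp) led every control list, and the 8194 bp locus of Gypsy-27_PTr-I-int on chromosome 13 (8689906 to 8698099) led every drought list. The next highest Gypsy internal-part locus had 861 or less in every library. In the RNAi libraries and WT drought, where only 1 of the 2 was listed, that locus made up 95.2% to 97.7% of all depth at Gypsy internal-part loci.

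Gypsy23-PTR_I-int at 44984628 was unlisted in the 3 drought libraries. Its depth values were 51684 in line 15 control, 36388 in line 23 control and 49200 in WT control. Listing in all 3 control libraries and no drought library was found for 1 of the 32 loci, this one, and for 1.15% of all loci. All 221 bp were covered by depth in each control library. Split reads covered 140 bp of it in line 15 control, 148 bp in line 23 control and 79 bp in WT control.

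The same locus also carried most of the split-read signal of the group. Its split-read values were 1105 in line 15 control, 722 in line 23 control and 943 in WT control, which were 87.1%, 84.7% and 78.3% of the group's split-read sum in those lists. Of the split-read sum of the whole lists it held 23.7%, 21.6% and 20.4% in the same order. The number of split reads per 100 units of depth was 2.14 in line 15 control, 1.98 in line 23 control and 1.92 in WT control, close to each other although the depth differed.

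Its neighbourhood on chromosome 1 held 2 further Gypsy23-PTR_I-int fragments. The nearer one (44982256 to 44983760, 1505 bp) ended 867 bp before it and the other (44974374 to 44975801, 1428 bp) ended 8826 bp before it. The gap between these 2 fragments was 6454 bp. The 3 fragments span 10475 bp. The nearer fragment had depth values of 106 in line 15 control and 74 in WT control, and the farther one had 27 in line 23 drought, against 79 and 71 in the line 15 and WT control libraries.

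Within the control libraries that list them, depth thus stepped up at the 221 bp locus. Its depth value was 488 times that of the nearer fragment in line 15 control and 665 times in WT control. Per kb of locus the ratios were 3320 and 4528. Values per kb assume that depth values count reads, which is not stated. The 221 bp locus is also shorter than a 250 bp read, so per kb it may not be comparable with longer fragments. Of the 32 loci, 28 had no other listed locus within 20 kb. The exceptions were these 3 fragments and Gypsy-74_PTr-I-int on chromosome 19 (2955399 to 2955563), listed in line 23 control, which lay 104 and 497 bp from 2 Ogre-PT3_I-int loci and was noticed after its values were seen.

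**Figure D2:**
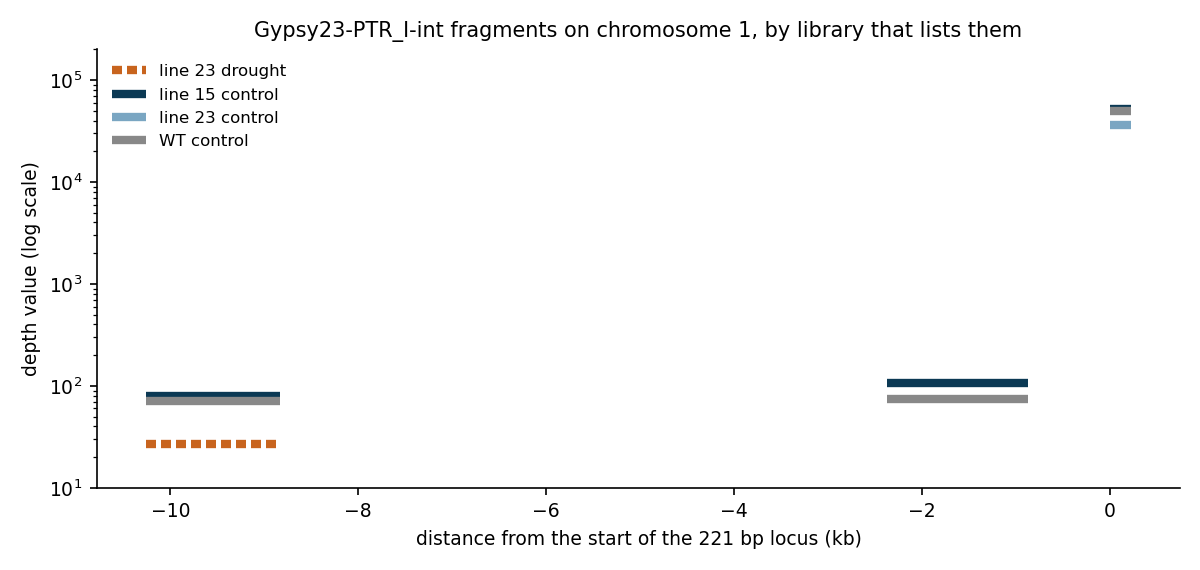
Depth value (log axis) of the 3 Gypsy23-PTR_I-int fragments on chromosome 1 against distance in kb from the start of the 221 bp locus; each bar spans 1 fragment in 1 library that lists it, with the drought library dashed. The 221 bp locus stands between 36388 and 51684 in the control libraries, and the fragments upstream between 27 and 106.

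Gypsy-27_PTr-I-int on chromosome 13 had depth values of 24823 in line 15 drought, 14317 in line 23 drought and 22796 in WT drought, and 20299 in WT control. It was unlisted in the control libraries of both RNAi lines. Where it was listed, depth covered 7432, 7066, 7237 and 7463 of its 8194 bp in the same order. At the WT pair, the only one with both values, the log2 ratio of drought over control was 0.17.

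Its split-read signal was low. The split-read value was 6 in each drought library and 13 in WT control, or between 0.0242 and 0.0640 per 100 units of depth. Split reads touched between 82 and 148 bp of the locus. Per kb its depth lay between 1747 and 3029, against 164652 to 233864 at the 221 bp Gypsy23 locus. The limit given above for values per kb applies here too. The 2 loci thus differ in length, in depth per kb and in split reads, although their deposited depth values are of like size. Names of LTRs, Gypsy-29_PTr-LTR and POPGY1_LTR, were also given to the Gypsy-27 locus, so the names do not mark its whole length as internal.

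**Figure D3:**
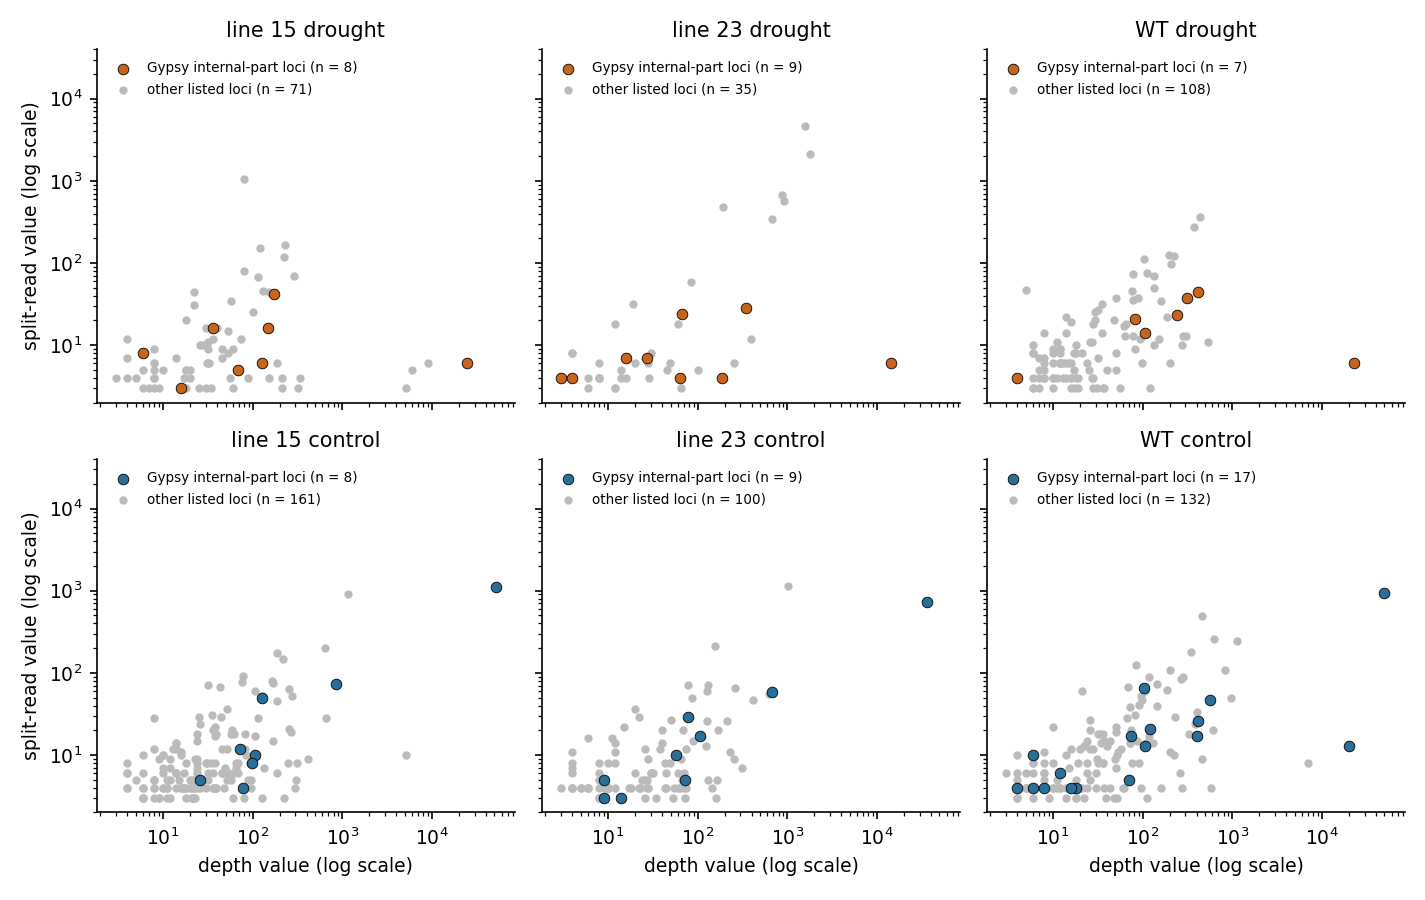
Split-read value against depth value (both log axes) of every listed locus, 1 panel per library, drought above and control below; large coloured points are the Gypsy internal-part loci and small grey points all other listed loci. The Gypsy-27 locus lies at the lower right, with 13 or fewer split reads, and the 221 bp Gypsy23 locus at the upper right of the control panels, with 722 to 1105.

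Beside these, 4 of the 32 loci were listed in 4 or more libraries, which makes 5 with Gypsy-27. That is 15.6%, against 6.65% of all loci. GYPOT1_I-int was the only one listed in all 6 libraries, where 1.61% of all loci were. Listing in 1 library was found for 22 of the 32, or 68.8%, and for 73.4% of all loci.

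GYPOT1_I-int on chromosome 1 (36180667 to 36181680, 1014 bp, 1 name) had depth values of 172 in line 15 drought and 126 in line 15 control. In line 23 they were 67 after drought and 78 under control watering, and in WT 314 after drought and 104 under control watering. WT drought was the highest of the 6 libraries and both line 23 libraries were the lowest. The mean log2 ratio of drought over control was 0.61 (SD 0.92, n = 3 genotypes, two-sided sign-flip, exact p = 0.5, adjusted to 0.7 over the 7 loci listed in all libraries). With 3 genotypes this test cannot give a p below 0.25. Divided by the summed depth of the list, the log2 ratio was 0.92 in line 15, 0.77 in line 23 and 3.19 in WT. With the highest locus left out of that sum, it was -0.050, -0.21 and 4.06 in the same order.

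The split-read values of GYPOT1_I-int did not follow its depth. Line 15 had 42 split reads after drought and 50 under control watering, line 23 had 24 and 29, and WT had 38 and 66. Split reads were lower after drought in all 3 genotypes, while depth was higher in 2. Per 100 units of depth there were 12.1 split reads in WT drought and 63.5 in WT control, the lowest and highest of the 6 values. For RNAi against WT the mean log2 difference of depth was -0.81 (exact two-sided permutation within watering, p = 0.444, adjusted p = 0.444).

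Gypsy-78_PTr-I-int on chromosome 1 (47450642 to 47451752, 1111 bp) was listed in 5 libraries and unlisted in line 15 drought. Its depth values were 343 after drought and 680 under control watering in line 23, and 415 and 563 in WT. Line 15 had 861 under control watering. The log2 ratio of drought over control was -0.99 in line 23 and -0.44 in WT. Divided by each library's summed depth the ratios were 0.0041 and 1.15, so the direction depends on the scale.

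The covered part of this Gypsy-78 locus was almost the same in every library. Depth covered 973 of the 1111 bp in 4 libraries and 974 bp in line 15 control. The split-read values were 28 after drought and 58 under control watering in line 23, 44 and 47 in WT, and 74 in the line 15 control list. They ranged from 8.16 to 10.6 per 100 units of depth, a narrower range than at GYPOT1_I-int. The locus also carries the names Gypsy-78_PTr-LTR and Gypsy18-PTR_LTR.

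POPGY1_I-int on chromosome 11 (9760359 to 9760747, 389 bp) was unlisted in line 23 drought. Its depth values were 148 in line 15 drought and 98 in line 15 control, 58 in line 23 control, and 82 in WT drought and 120 in WT control. The log2 ratio of drought over control was 0.59 in line 15 and -0.55 in WT, and 1.07 and 1.04 after division by the list's summed depth. Depth covered 387 bp in both drought libraries that list it, and 357, 351 and 355 bp in line 15, line 23 and WT control. The split-read values were 16 after drought and 8 under control watering in line 15, 21 in both WT libraries, and 10 in the line 23 control list.

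POPGY1_I-int on chromosome 19 (6885698 to 6886242, 545 bp) was listed in all 4 RNAi libraries and no WT library. Of all loci, 0.459% had that pattern. The depth values were 126 after drought and 72 under control watering in line 15, and 63 and 72 in line 23. The split-read values were 6 after drought and 12 under control watering in line 15, and 4 after drought and 5 under control watering in line 23. In line 15 control the covered fraction, 0.802, was close to the lowest in any list, 0.801, and values of unlisted loci are not known. By single waterings, 1 of the 32 loci was listed in both RNAi drought libraries and no WT library (0.917% of all loci), and 1 in both RNAi control libraries and no WT library (2.29%). Both were this locus.

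Gypsy-28_PTr-I-int on chromosome 18 (7338699 to 7339639, 941 bp) was the 1 locus of the 32 listed in both WT libraries and no RNAi library, a pattern of 1.83% of all loci. Its depth values were 240 in WT drought and 407 in WT control, and its split-read values 23 after drought and 17 under control watering. A second locus listed in few libraries but with high depth was the 2031 bp of Gypsy-27_PTr-I-int on chromosome 16 (8464840 to 8466870). It had depth values of 187 in line 23 drought and 414 in WT control, and split-read values of 4 and 26. Names of both Gypsy-27 and Gypsy-28 were given to it.

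The 22 loci listed in a single library had low values. Their depth ran from 3 to 106 with a median of 13, against a range of 27 to 51684 and a median of 160 over the 36 entries at the other 10 loci. Their median length was 178.5 bp, and 1062.5 bp at the other 10. WT control held 8 of them, line 15 drought and line 23 control 4 each, line 23 drought 3, WT drought 2 and line 15 control 1. The highest depth values were 106 at Gypsy23-PTR_I-int on chromosome 7 (3508329 to 3512360, 4032 bp) in line 23 control, and 106 at Gypsy-28_PTr-I-int on chromosome 15 in WT drought. The second of these was named after its value was seen.

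Some fragments listed in a single library had the same length at different sites. Gypsy7-PTR_I-int had 601 bp on chromosome 6 (27454255 to 27454855, line 23 drought, depth 16, 7 split reads) and also on chromosome 14 (line 15 control, depth 26). POPGY1_I-int had 124 bp on chromosome 16 (5383106 to 5383229, line 15 drought, depth 36, 16 split reads) and also on chromosome 6 (WT control, depth 6). Gypsy8-PTR_I-int had 167 bp on chromosomes 5 and 15, both in line 23 control and both with a depth value of 9. Reads of copies that are nearly identical could be placed at either site, so such loci are uncertain, and the authors' handling of such reads is not stated in the sources used here.

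The effect of drought and rewatering on the number of loci was compared within each genotype. Line 15 had 8 Gypsy internal-part loci after drought and 8 under control watering, and line 23 had 9 in each library. WT had 7 after drought and 17 under control watering. The ratio of drought over control was 1 in line 15 (95% interval 0.327 to 3.06), 1 in line 23 (0.352 to 2.84) and 0.412 in WT (0.144 to 1.04). These exact intervals cover counting error only. The other listed loci had ratios of 0.441 in line 15, 0.350 in line 23 and 0.818 in WT.

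The mean difference in number was -3.33 loci (SD 5.77, n = 3 genotypes, sign-flip exact p = 1). WT alone sets this value, since it is 0 without WT. Permuting which genotype was WT, the difference between the RNAi lines and WT had an exact p of 0.333, the smallest that 3 genotypes allow. This test was added after the values were seen.

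As a share of the list, the Gypsy internal-part loci made up 10.1% after drought and 4.73% under control watering in line 15. In line 23 they made up 20.5% after drought and 8.26% under control watering, and in WT 6.09% after drought and 11.4% under control watering. The share was thus higher after drought in both RNAi lines and lower in WT, with a mean difference of 4.09 percentage points (SD 8.83, n = 3 genotypes, two-sided sign-flip, exact p = 0.5, adjusted to 0.6 over 6 tests). The exact 95% intervals after drought were 4.47 to 19.0% in line 15, 9.80 to 35.3% in line 23 and 2.48 to 12.1% in WT. Under control watering they were 2.07 to 9.11%, 3.85 to 15.1% and 6.79 to 17.6%, so each pair overlapped. Without line 23 the mean difference was 0.0352 percentage points. Among loci with a depth of at least 20, the shares after drought were 11.3% in line 15, 25% in line 23 and 10% in WT. Under control watering they were then 7.27%, 8.70% and 10.1%, so the 2 WT shares were nearly equal. With loci weighted by length, the share was higher after drought in all 3 genotypes. It was then 26.1% after drought and 8.56% under control watering in line 15, 56.2% and 16.1% in line 23, and 25.3% and 16.6% in WT. The mean difference was 22.1 percentage points by this weighting (sign-flip exact p = 0.25), so the direction in WT depends on it. The Gypsy-27 locus alone gave 8194 of the 11521 bp in line 15 drought, of the 15215 bp in line 23 drought and of the 13760 bp in WT drought. It gave 8194 of the 19551 bp in WT control and was unlisted in the RNAi controls. The weighted share without this locus was not calculated.

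**Figure D4:**
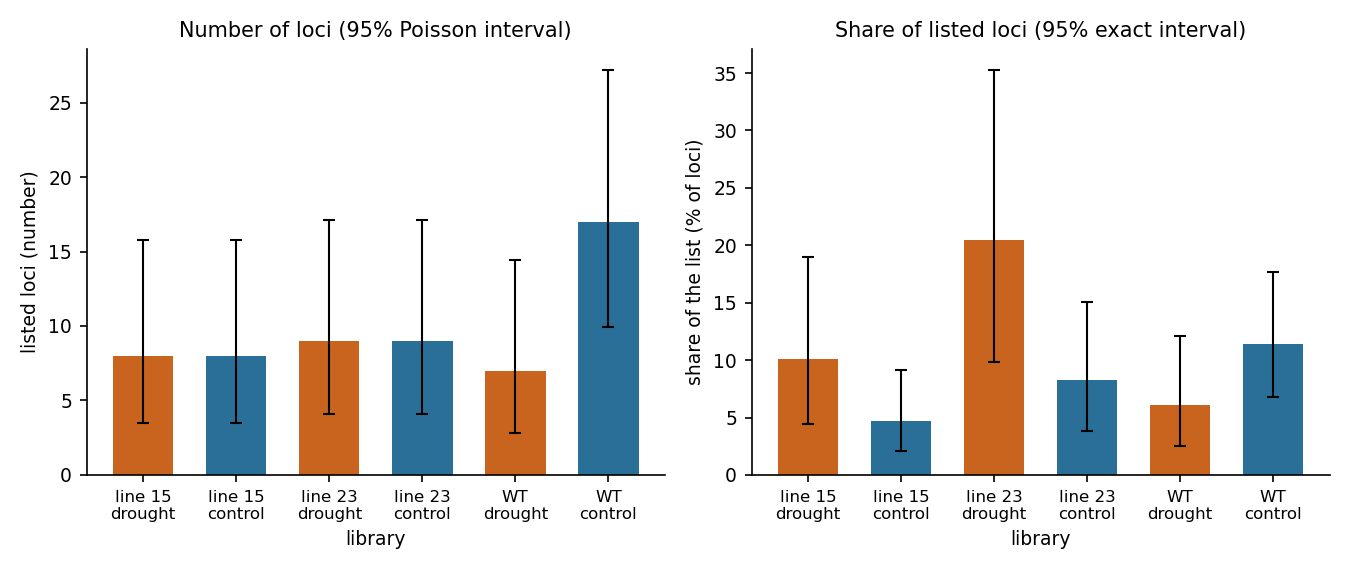
Number of Gypsy internal-part loci (left, with 95% Poisson intervals) and their share of all listed loci in percent (right, with exact 95% intervals) in each library; orange bars are drought and blue bars control. WT control has the most loci, 17, and line 23 drought the highest share, 20.5%, and the intervals cover counting error only.

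Listing in both waterings of a genotype was found for 23.1% of the Gypsy internal-part loci in line 15, 20% in line 23 and 26.3% in WT. These shares were above those over all loci, 13.8%, 10.9% and 16.8%, but rest on 3, 3 and 5 loci. In line 15, 3 of 13 loci were listed in both libraries, 5 only after drought and 5 only under control watering, where over all loci of that genotype the shares were 13.8%, 22.5% and 63.8%. In line 23 it was 3, 6 and 6 of 15, against 10.9%, 21% and 68.1% of all loci. In WT it was 5, 2 and 12 of 19, against 16.8%, 34.1% and 49.1%. Only-control loci were thus 38.5% and 40.0% in the RNAi lines, below the share over all loci, and 63.2% in WT, above it. Over the whole series, 9 of the 32 were listed in drought libraries only (24.5% of all loci) and 15 in control libraries only (56.7%). None was listed in all 3 drought libraries and no control library, a pattern of 0.229% of all loci.

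Where a locus was listed in both waterings, few depth values differed by 2-fold or more. In line 15, 0 of 3 were at least 2-fold lower after drought and 0 were at least 2-fold higher, against 23.3% and 3.33% of all loci listed in both libraries. In line 23 it was 0 and 0 of 3, against 33.3% and 13.3%. In WT it was 0 and 1 of 5, against 10.5% and 15.8%, and the 1 was GYPOT1_I-int. The median log2 ratio of drought over control was 0.59 in line 15, -0.22 in line 23 and -0.44 in WT, where all shared loci had medians of -0.32, -0.55 and -0.38. These directions hold for depth as deposited. Divided by the summed depth of the list, the medians were 1.07, 0.77 and 1.15, and 11 of 11 ratios were above 0. All shared loci then had medians of 0.15 in line 15, 0.44 in line 23 and 1.21 in WT, and 15 of 30, 5 of 15 and 1 of 38 were lower. With the highest locus left out of that sum, the Gypsy internal-part medians were 0.096, -0.21 and 2.03. Of these ratios, 1 of 3, 3 of 3 and 0 of 5 were lower after drought. All shared loci had medians of -0.82, -0.54 and 2.09 on that scale, with 25 of 30, 11 of 15 and 0 of 38 lower. With 3 to 5 loci per genotype these medians are descriptions.

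The summed depth of the Gypsy internal-part loci was 25395 in line 15 drought and 53052 in line 15 control. It was 15027 after drought and 37414 under control watering in line 23, and 23957 after drought and 71427 under control watering in WT. The mean log2 ratio was -1.32 (SD 0.26, n = 3 genotypes, lower in 3 of 3, two-sided sign-flip, exact p = 0.25, adjusted to 0.5 over 6 tests). Divided by the summed depth of the list, the mean log2 ratio was -0.30 (sign-flip exact p = 0.5), and it was lower in the RNAi lines only. Without the locus of highest depth in each library the sums after drought were 572 in line 15, 710 in line 23 and 1161 in WT, and under control watering 1368, 1026 and 22227. The mean log2 ratio was then -2.02 (SD 1.98, n = 3 genotypes, sign-flip exact p = 0.25), and -0.89 without WT.

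That value rests on WT control, where leaving out the 221 bp Gypsy23 locus keeps Gypsy-27 with 20299 of the 22227. With both leading loci left out of every library, a choice made after the values were seen, WT had 1161 after drought and 1928 under control watering. The mean log2 ratio was -0.84 (SD 0.38, n = 3 genotypes, lower in 3 of 3, exact two-sided sign-flip p = 0.25).

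Of the summed depth of a list, the Gypsy internal-part loci held 50.7% in line 15 drought and 76.2% in line 15 control. They held 67.1% after drought and 84.1% under control watering in line 23, and 78.5% after drought and 77.6% under control watering in WT. Without the locus of highest depth these shares after drought were 2.26% in line 15, 8.80% in line 23 and 15.0% in WT, and under control watering 7.64%, 12.6% and 51.9%. Without both leading loci the WT shares were 15.0% after drought and 8.56% under control watering.

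The mean difference, drought minus control, was -13.9 percentage points with all loci (SD 13.5, n = 3 genotypes, sign-flip exact p = 0.5). It was -8.05 without line 15 and -21.3 without WT. It was -15.4 without the locus of highest depth (SD 18.7, p = 0.25 by the same exact test, and -4.61 without WT) and -0.92 without both leading loci (SD 6.43, p = 1 by the same exact test). In the last of these the difference was -5.38 points in line 15, -3.84 in line 23 and 6.45 in WT. All of these tests are limited by 3 genotypes with 1 pair of libraries each.

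**Figure D5:**
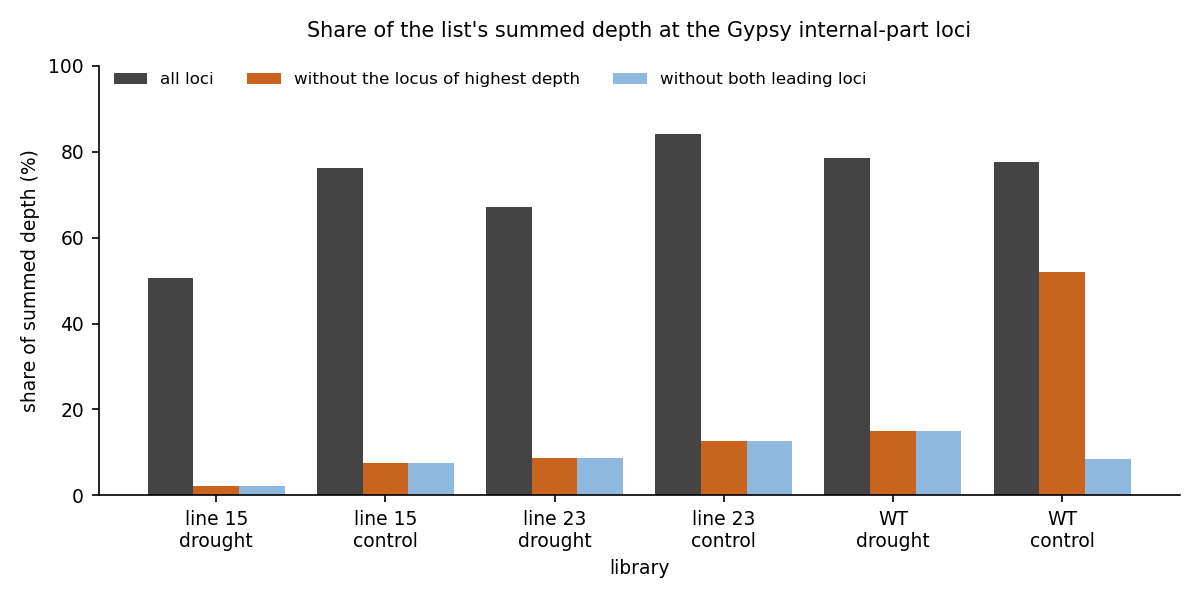
Share in percent of each list's summed depth held by the Gypsy internal-part loci, with all loci (dark grey), without the locus of highest depth in that library (orange) and without both leading loci (light blue). The share is 50.7% or more with all loci and 15.0% or less without both leading loci.

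The RNAi lines were set against WT within each watering. The 4 RNAi libraries had 8, 8, 9 and 9 loci and the WT libraries 7 after drought and 17 under control watering. The mean of the differences, RNAi minus WT, was -3.5 loci (exact two-sided permutation within watering, 9 arrangements, p = 0.333), made of 1.5 after drought and -8.5 under control watering. The share of listed loci differed by 2.14 percentage points (p = 0.778 by the same exact test), made of 9.20 after drought and -4.91 under control watering. It turned to -1.32 points without line 23.

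The share of summed depth differed by -8.53 percentage points, RNAi minus WT, with all loci (exact permutation within watering p = 0.444). It was -2.46 without line 15 and -14.6 without line 23. Without the locus of highest depth the difference was -25.6 points (exact permutation p = 0.11, the smallest this design allows, adjusted p = 0.444 over 4 tests). It was -9.48 after drought and -41.8 under control watering. Without both leading loci it was -3.96 points (exact permutation p = 0.444), so the larger value again rests on Gypsy-27 in WT control. By listing alone, 13 of the 32 loci were in RNAi libraries only (48.2% of all loci) and 11 in WT libraries only (30.5%).

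Gypsy internal-part loci were set against the rest of each list in measures that the naming rule did not use. Their median length was between 389 and 1014 bp per library, and that of the other listed loci between 209.5 and 381.5 bp. It was higher in 6 of 6 libraries, by a mean of 465 bp (SD 288, exact two-sided sign-flip p = 0.031, the smallest that 6 libraries allow, adjusted p = 0.0781 over 5 measures). Split reads per 100 units of depth had medians between 9.01 and 25.9, and between 26.7 and 50.0 at the other loci. They were lower in 6 of 6 libraries, with a mean difference of -19.1 (SD 7.45, by the same exact test p = 0.031, adjusted to 0.0781). Neither passed an adjusted p of 0.05, and libraries share loci, so they are not fully independent. No listed locus had a split-read value below 3, so a locus of low depth has a high ratio of split reads to depth. Median depth per library was 63 to 240 at the Gypsy internal-part loci and 20 to 36 at the other loci. With a depth of at least 20 the difference in this ratio was -11.5. The same limit applies to the comparisons below.

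The same measures were set against the nearest relatives. Medians were taken per library, over 7 to 42 Gypsy loci named as LTR and over 3 to 15 internal loci of Gypsy13 and Gypsy21. Against 125 Gypsy loci named as LTR, length was higher in 6 of 6 libraries by a mean of 419 bp (SD 321). The names set internal parts apart from LTRs, so length may not be independent of this contrast. Depth per kb was higher in 6 of 6 by a mean of 69.1 (SD 66.4), and split reads per 100 units of depth were lower in 6 of 6 with a mean difference of -19.1 (SD 8.94). Each had an exact two-sided sign-flip p of 0.031 and an adjusted p of 0.0521 over 5 measures. Depth per kb assumes that depth values count reads, which is not stated, and these kinds of loci differ in length. Against 29 internal loci of Gypsy13 and Gypsy21, split reads per 100 units of depth were lower in 6 of 6 libraries with a mean difference of -25.0 (SD 12.2, exact p = 0.031, adjusted p = 0.156), and length was higher in 5 of 6. The covered fractions had adjusted p-values of 0.156 or more in all 3 comparisons.

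Overlap between the lists was partial. The 3 drought libraries shared 3 loci in each pair, or 37.5% of the line 15 loci, 33.3% of the line 23 loci and 42.9% of the WT loci. Over all loci the shares in these pairs ran from 13.9% to 38.6%. Line 15 control and WT control shared 6, or 75.0% and 35.3% of their Gypsy internal-part loci, where all loci shared 27.8% and 31.5%, and line 15 control and line 23 control shared 5, or 62.5% and 55.6%, where all loci shared 23.1% and 35.8%. Line 23 control and WT control shared 4, or 44.4% and 23.5%, where all loci shared 29.4% and 21.5%. The 2 WT libraries shared 5, or 71.4% of the drought loci and 29.4% of the control loci, where all loci shared 33.0% and 25.5%. In all of these pairs the lists differ in length, so a share of each is given.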

How the data were processed

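Mobilome-seq was done on 6 libraries, 1 per group. Per the labels' protocols, a CTAB extraction was followed by amplification of extrachromosomal DNA, and Nextera XT libraries were read as pairs of 250 bp reads on an Illumina MiSeq. Per the submitters' processing notes, Bowtie2 was used, with no version. The sources used here name no genome build, caller or filter.

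Per the file headers, the authors deposited depth and split-read coverage per locus, treated here as signal, and the part of a locus covered, deposited as a fraction. Depth per library is unknown, so no count model was fitted and no interval of a depth value is given. Each sheet was assigned to the sample whose title it bears. Loci were matched by chromosome, start and end, and covered base pairs are fraction times length.

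Watering was tested by two-sided exact sign-flip over 3 genotypes, RNAi against WT by exact permutation within watering, and differences from other loci by exact sign-flip over 6 libraries, with Benjamini-Hochberg adjustment. Number ratios, Poisson and Clopper-Pearson intervals are at 95% and cover counting error only. With 1 library per group, p-values rest on differences between genotypes or between libraries and measure no spread within a group. Python 3.11.15 with numpy 2.4.6, pandas 2.3.3, scipy 1.17.1 and matplotlib 3.10.9 was used, and the tests were tested on simulated data.

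Named are the loci in 4 or more libraries, the highest of a library, the 3 highest by depth or split reads in each library, those of 1 watering only in all its libraries, and those of RNAi or WT only as described. The rule gave 12 loci, and loci named after their values were seen are marked so. The loci and tests were chosen with earlier results of these data known. Alternatives were a depth of at least 20, merging within 1000 bp, any family name, other scalings and leaving out genotypes, lines or libraries.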

Additional observations from a re-analysis of the deposited data

Results flagged for a closer look

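With 1 library per group no library was tested as an outlier of its group. The results below are listed because the drought effect, on the values as deposited, had opposite directions in different genotypes. At single loci the difference between genotypes was not tested, with 1 pair of libraries per genotype.

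The share of listed loci that were Gypsy internal-part loci differed, drought minus control, by 5.39 percentage points in line 15, 12.2 in line 23 and -5.32 in WT. With loci weighted by length this share was higher after drought in all 3, where the Gypsy-27 locus on chromosome 13 made up most of their length after drought. Among loci with a depth of at least 20, Gypsy internal-part loci made up 10% of the WT drought list and 10.1% of the WT control list. Their share of the summed depth with all loci differed by -25.6 percentage points in line 15, -16.9 in line 23 and 0.844 in WT. Permuting which genotype was WT gave an exact p of 0.333 for each, the smallest possible. This test was added after the values were seen. Both results were picked for their opposite directions, so this p gives no support to a difference.

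At GYPOT1_I-int on chromosome 1 the log2 depth ratio of drought over control was 0.45 in line 15, -0.22 in line 23 and 1.59 in WT. At POPGY1_I-int on chromosome 11 it was 0.59 in line 15 and -0.55 in WT. At POPGY1_I-int on chromosome 19 it was 0.81 in line 15 and -0.19 in line 23. Divided by the summed depth of each list, with its highest locus included, the directions were the same in every genotype. The ratios were then 0.92, 0.77 and 3.19 at GYPOT1_I-int in line 15, line 23 and WT, 1.07 and 1.04 at POPGY1_I-int on chromosome 11, and 1.28 and 0.80 at POPGY1_I-int on chromosome 19. Where the sum left out the highest locus, they were -0.050, -0.21 and 4.06 at GYPOT1_I-int. At POPGY1_I-int they were then 0.096 and 1.92 on chromosome 11, and 0.31 and -0.18 on chromosome 19. The directions thus differed again at GYPOT1_I-int and at POPGY1_I-int on chromosome 19.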

How the results depend on the processing

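Only loci with a depth value of at least 20 gave a mean difference in number of -2 loci for drought minus control and -1.5 for RNAi minus WT, smaller by over 1.5 times because low loci drop out of the WT control list, which keeps 10 of 17. With the same minimum, the difference from Gypsy13 and Gypsy21 internal loci in depth per kb turned from 49.1 to -90.8. Leaving out 1 RNAi line moved the RNAi minus WT share of listed loci between -1.32 and 5.61 percentage points, and leaving out 1 genotype moved the drought minus control number between -5 and 0. The mean log2 depth ratio at Gypsy-78_PTr-I-int on chromosome 1, -0.71 as deposited, turned to 0.58 with depth divided by the sum of its list, and 0.53 where that sum left out the highest locus. On ranks, POPGY1_I-int turned to -0.041 on chromosome 11 (0.023 as deposited) and -0.056 on chromosome 19 (0.31 as deposited). Divided by the sum of the list these were 1.06 and 1.04, and GYPOT1_I-int was 1.63, against 0.61 as deposited. Where that sum left out the highest locus, they were 1.01 and 0.063, and GYPOT1_I-int was 1.27. The causes were not tested. The other 180 values of the main comparisons over the alternatives run kept their direction, apart from the number of 0 without WT. Their side of the adjusted threshold of 0.05 was also kept, but many could not have crossed it. The watering tests, the RNAi tests and those without 1 library have smallest possible p-values above 0.05. Not all of the 180 kept their size. The drought minus control depth share of -13.9 percentage points was -77.3 with depth divided by length and -22.5 with split reads. Without the highest locus it was -3.65 and -2.02 under these settings, against -15.4. The log2 ratio of summed depth without the highest locus was -1.36 after division by the list's sum. With a depth of at least 20, the depth per kb difference from other listed loci was 13.5, against 51.8 with all loci. From LTR loci it was 57.4, against 69.1 with all loci (exact sign-flip p = 0.19 with that minimum, adjusted p = 0.31). With that minimum, the difference in split reads per 100 units of depth was -11.5 from other loci, -8.25 from LTR loci and -16.6 from Gypsy13 and Gypsy21 loci. Without WT drought, and with no minimum, the depth per kb differences were 27.3 from other loci, 45.8 from LTR loci and 22.5 from Gypsy13 and Gypsy21 loci. Alternatives for the comparisons with LTR and with Gypsy13 and Gypsy21 loci, and the minimum for depth shares, were chosen after seeing the data. Signal at low loci, 16 of 58 entries below 20, lies near the lowest listed value of 3.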
